A study of Brassica rapa with 12 samples.

Results

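The stem response to silencing of BrCHR39 was taken from 6 of the 12 libraries of the series, 3 of stems of BrCHR39-silenced lines and 3 of stems of wild type plants, chosen by their labels and not by any measured value. Brassica rapa is the crop species of Chinese cabbage and turnip. All plants were 8 weeks old and had grown in a climate chamber, with 16 h of light at 21 °C and 8 h of darkness at 18 °C. The other 6 libraries are of silenced and wild type buds from plants of the same age, and are used here only beside the stem values. The labels do not say how the gene was silenced, how many lines or plants stand behind a library, or whether separate plants were sampled for the 3 libraries of a group. All p-values below therefore set differences between groups only against the scatter of these libraries, and that scatter may be technical.

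Chromatin remodelling ATPases use the energy of ATP to slide, evict or restructure nucleosomes, the protein spools that DNA is wound on, and so change which genes the transcription machinery can reach. The series' title presents BrCHR39 as such an ATPase that favours apical dominance, the hold of the growing shoot tip over the side buds below it. Auxin made in the tip and carried down the stem is a main signal of that hold, so the stem is the tissue through which tip and side buds are known to communicate. The stem comparison asks which genes differ there between silenced and wild type plants.

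The 6 stem libraries held between 13970372 and 15313960 reads assigned to genes. The authors counted reads for 41020 genes. Of these, 28114 carried enough reads over the 12 libraries to be tested, and 661 of these had no read in any stem library and so could not be called in stem. The genes are listed under identifiers without names, so pathways, stem marker genes and BrCHR39 itself were not analysed here. The genotype and tissue labels could accordingly not be checked on the genes that define them, and every direction below rests on the labels. In the read shares of the genes changed in stem, given last, silenced stems stood with wild type buds and wild type stems with silenced buds. Levels are given as CPM, the read count scaled to the library size after TMM, and a gene was called when its Benjamini-Hochberg adjusted p in edgeR's quasi-likelihood test was under 0.05. TMM puts stem and bud on a common scale and raises stem CPM over CPM from plain library totals; shares of reads below use plain library totals.

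The stem reads were spread over more genes in silenced plants, and the gene with the most reads held a smaller share of them. It took 1281, 1284 and 1278 genes to hold 50% of all reads in the silenced stem libraries, against 1165, 1162 and 1168 genes in the wild type stem libraries. The groups did not overlap, and the gap was many times the SD of 3 genes within each group. Fewer genes were detected at the same time, with at least 1 read in 28723 ± 35.8 genes in silenced stems and in 29358.7 ± 62.3 genes in wild type stems (SD, n = 3 each). For both measures the two-sided exact permutation test gave p = 0.1, the smallest that 3 against 3 libraries allow. The top gene of each silenced stem library held 0.428% to 0.439% of the reads, while the top gene of each wild type stem library, Bra012238, held 0.588% to 0.596%.

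The 4 identifiers printed are those whose CPM differed most in absolute terms, 2 in each direction. They were taken from genes called at least 2-fold changed whose stem groups did not overlap. Their lack of overlap in stem was thus set by the choice. The gene that lost most was Bra013863, with a coding length of 639 bases. It had 1018, 1025 and 971 CPM in the silenced stem libraries, against 4958, 4927 and 4893 CPM in the wild type stem libraries. Every silenced stem lay far below every wild type stem. Its log2 fold change was -2.29 with an SE of 0.0204 (edgeR, adjusted p = 2.06e-146), and per length its mean level was 1357 FPKM in silenced stems (rank 87 among all genes) and 6722 FPKM in wild type stems (rank 4).

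Bra012238, with a coding length of 1479 bases, had the most reads of all genes in wild type stems. It had 3308, 3290 and 3303 CPM in the silenced stem libraries, against 6840, 6746 and 6763 CPM in the wild type stem libraries. The groups were again far apart, and per length its mean level was 1926 FPKM in silenced stems (rank 50) and 3999 FPKM in wild type stems (rank 16). It fell by 1.04 on the log2 scale, with an SE of 0.0172 (edgeR, adjusted p = 9.16e-107). In bud it moved the other way, with a mean of 1273 ± 10.9 CPM in silenced buds and 200 ± 0.731 CPM in wild type buds (SD, n = 3 each).

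The largest gain was that of Bra013164, with a coding length of 888 bases. It had 2552, 2549 and 2596 CPM in the silenced stem libraries, against 178, 177 and 183 CPM in the wild type stem libraries. The groups did not overlap, and per length its mean level was 2494 FPKM in silenced stems (rank 25) and 176 FPKM in wild type stems (rank 1003). Its log2 fold change was 3.84 with an SE of 0.0249 (edgeR, adjusted p = 1.33e-166). In bud the order was reversed, with 11.2 ± 1.02 CPM in silenced buds and 279 ± 6.33 CPM in wild type buds.

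Bra039648, with a coding length of 1353 bases, had 3479, 3374 and 3457 CPM in the silenced stem libraries, against 1180, 1157 and 1171 CPM in the wild type stem libraries. Here too the silenced libraries lay together above all wild type ones, and per length its mean level was 2193 FPKM in silenced stems (rank 38) and 754 FPKM in wild type stems (rank 175). Its log2 fold change was 1.56 with an SE of 0.0194 (edgeR, adjusted p = 9.03e-125). In bud it averaged 38.3 ± 0.556 CPM in silenced plants and 814 ± 10.9 CPM in wild type plants. Of the 4 genes, Bra013863 alone changed in the same direction in both tissues, and in bud by a log2 fold change of only -0.11 (edgeR, adjusted p = 1.26e-06).

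**Figure D1:**
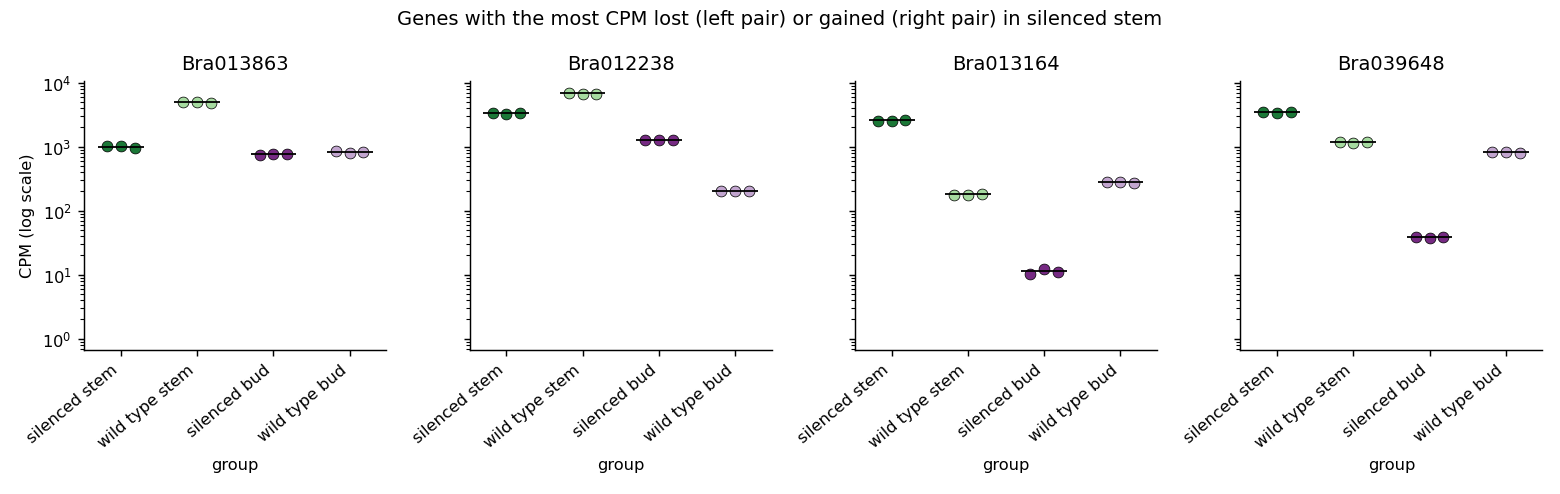
CPM on a log scale (y axis) of 4 genes in each of the 12 libraries, with groups on the x axis, 1 point per library and a line at the group mean. Bra013863 and Bra012238 are lower in silenced than in wild type stems, Bra013164 and Bra039648 are higher, and in bud the order of the groups is the opposite for Bra012238, Bra013164 and Bra039648.

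Most of the stem response consisted of changes of moderate size. Of the 28114 genes tested 19598 were called, or 69.7%, with 10578 higher (37.6%) and 9020 lower (32.1%) in silenced stems. Counted without the test, 19756 genes, 70.3%, had stem groups that did not overlap. Changes of at least 2-fold were found for 8086 genes (28.8%), of which 4061 were higher (14.4%) and 4025 lower (14.3%). Changes of at least 4-fold were called in 11.4% of the tested genes and changes of at least 32-fold in 2.36%. The most common sizes lay between 1.2-fold and 4-fold, with 2876 genes higher and 2183 lower at 1.2-fold to 1.5-fold, 2751 higher and 2005 lower at 1.5-fold to 2-fold, and 2725 higher and 2162 lower at 2-fold to 4-fold.

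The balance of directions turned with the size of the change. Among all calls there were 0.853 lower genes for each higher one, and among changes of at least 2-fold 0.991. At 4-fold and over the ratio was 1.39, with 1336 genes higher and 1863 lower. At 8-fold and over, which 5.78% of the tested genes reached, it was 1.83, with 574 genes higher (2.04% of those tested) and 1052 lower (3.74%), and at 32-fold and over 2.95, with 168 higher and 496 lower. The lean of all calls towards gain turned when the 6 stem libraries were fitted by themselves, with 9109 genes higher and 9523 lower. That fit changed the genes tested (24787), the spread estimate and the scaling together. With the scaling alone changed, higher genes stayed in the majority, at the closest 9927 higher and 9638 lower with upper-quartile scaling. The lean of the 8-fold changes towards loss held in each of the 17 fits that gave this count, the one reported included, with 1.72 to 2.28 lower genes per higher one.

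Genes with large changes were weakly expressed and tended to have short coding sequences. The median level over both stem groups was 52.8 CPM for genes called higher by under 1.2-fold and 50.8 CPM for genes called lower by that size. At 2-fold to 4-fold it was 9.29 CPM for higher and 9.56 CPM for lower genes, and at 32-fold and over 1.47 CPM and 1.61 CPM. Over the same steps the median coding length went down, at under 1.2-fold 1245 bases for higher and 1284 bases for lower genes, at 2-fold to 4-fold 1005 and 1054 bases, and at 32-fold and over 855 and 888 bases. The levels per length showed the same order, with 38.1 FPKM for higher genes at under 1.2-fold and 1.72 FPKM at 32-fold and over. Small changes pass the test only where reads are many, so the order of the levels is in part set by the test itself.

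**Figure D2:**
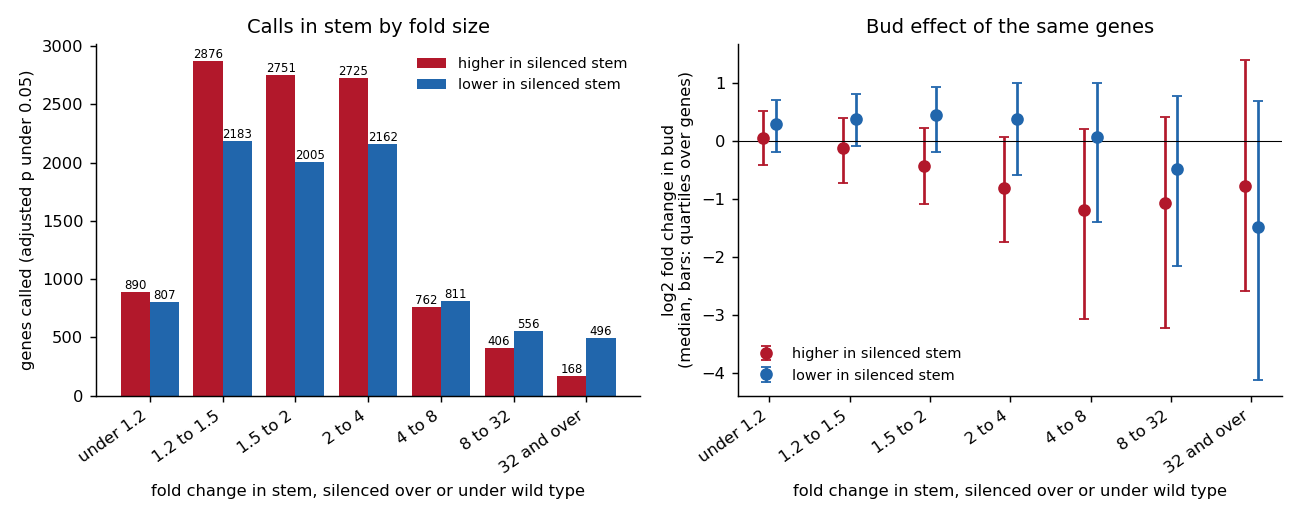
Left, number of genes called in stem (y axis) by size of the fold change (x axis), higher in red and lower in blue. Right, for the same genes, the log2 fold change in bud (y axis, silenced over wild type), with points at the median and bars at the quartiles over genes: genes higher in silenced stems have medians below 0 in bud from 1.2-fold on, and genes lower in silenced stems have medians above 0 up to 4-fold to 8-fold and below 0 beyond.

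Losses to no reads at all were more frequent than gains from none. In 267 of the 41020 genes counted the 3 silenced stem libraries had 0 reads while the 3 wild type stem libraries together had at least 30. The reverse, 0 reads in wild type stems and at least 30 in silenced stems, was found in 53 genes. A count of 0 allows a level of up to 0.205 to 0.215 plain CPM in a silenced stem library and 0.196 to 0.209 in a wild type stem library, at 3 reads of the total and for counting error only. Most of these genes were weak where they had reads, with a median of 1.74 CPM in wild type stems for the 267 and 2.14 CPM in silenced stems for the 53. At least 5 CPM was reached by 55 of the 267 and by 12 of the 53. Of the 267 genes, 116 had no reads in silenced buds either, while 29 had none in wild type buds, and 23 of these had none in any bud library. Of the 53 genes, 10 had no reads in silenced buds and 8 none in wild type buds. Silenced buds had reads in fewer genes as a whole, 29910.7 ± 65.8 against 31761.3 ± 192 in wild type buds (SD, n = 3 each). The part of that difference in these bud counts was not tested.

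Set out by expression level, the share of genes called at least 2-fold was lowest at middle levels and higher towards both ends. The classes use the mean CPM over both stem groups, so that they favour neither direction. At 1 to 5 CPM 41.2% of 5665 genes were called at least 2-fold, 21.1% higher and 20.2% lower in silenced stems. The share was 26.0% at 5 to 20 CPM and lowest at 20 to 100 CPM, where 20.4% of 8144 genes passed, 10.9% higher and 9.5% lower. It was 25.5% at 100 to 500 CPM and 31.3% among the 297 genes at 500 CPM and over, against 28.8% over all genes tested. Under 1 CPM it was 34.4%, although 65% of these 4256 genes were not called at any size. This class includes the 661 genes without any stem read, which could not be called. Its genes could pass the read filter through either stem group alone or through bud, so the filter sets part of its share. The test also saw less there, since the median SE of the log2 fold change was 0.685 under 1 CPM, 0.0688 at 20 to 100 CPM and 0.0231 at 500 CPM and over.

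Losses of at least 8-fold outnumbered gains of that size at every level, as they did over all genes tested. There 3.74% were lower and 2.04% higher, or 1.83 lower genes for each higher one. Under 1 CPM 219 genes were called at least 8-fold higher and 377 lower in silenced stems. At 1 to 5 CPM 180 were higher and 340 lower, and at 20 to 100 CPM 50 were higher and 100 lower. Among the genes at 500 CPM and over 4 were at least 8-fold higher and 7 lower. With the level taken per length, as the mean FPKM over both stem groups, the share called at least 2-fold had the same course, with 36.3% at 1 to 5 FPKM, 23.2% at 20 to 100 FPKM and 28.3% at 500 FPKM and over.

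**Figure D3:**
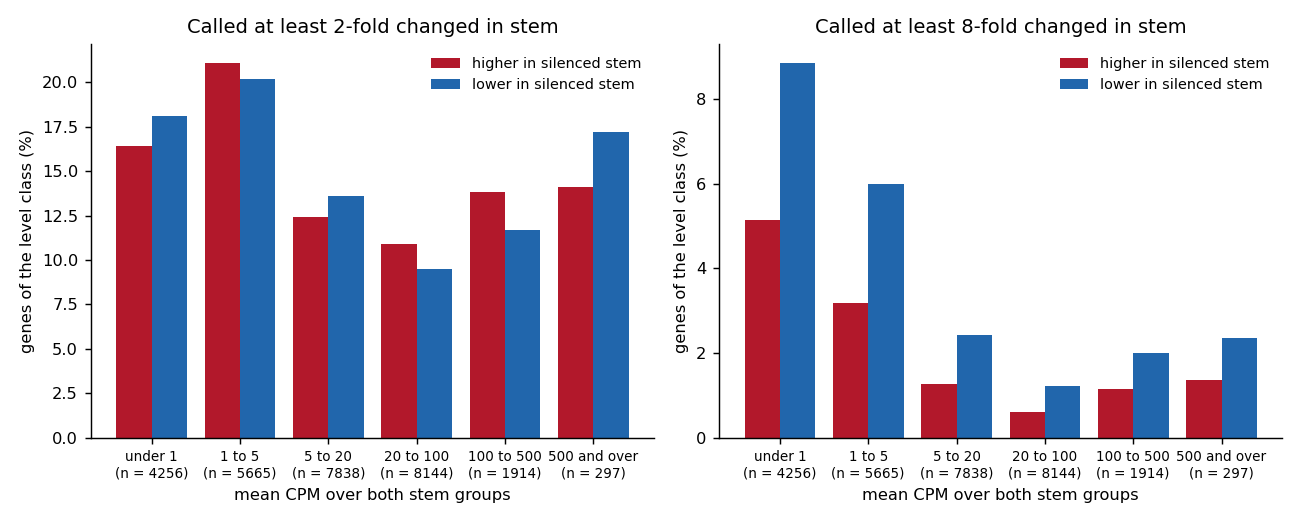
Percent of genes (y axis) called at least 2-fold (left) and at least 8-fold (right) higher (red) or lower (blue) in silenced stems, by mean CPM over both stem groups (x axis, with the number of genes). At least 2-fold changes are least frequent at 20 to 100 CPM, and at least 8-fold changes are more often losses in every class.

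The stem genes with the most reads were changed at least 2-fold about as often as all genes tested, 31.3% against 28.8%. At any size they were called more often, with 5.39% not called against 30.3% of all genes tested. Of the 297 genes at 500 CPM and over 42 (14.1%) were called higher and 51 (17.2%) lower by at least 2-fold, against 14.4% and 14.3% of all genes tested. At 4-fold 13 were higher and 23 lower, where 11.4% of all genes tested were called in either direction. All 297 together held 27.5% ± 0.0449 of the reads in silenced stems and 29.5% ± 0.024 in wild type stems (SD, n = 3 each). The 51 lower genes alone held 2.34% ± 0.00303 of the reads in silenced stems and 7.66% ± 0.0251 in wild type stems. The 42 higher ones held 4.8% ± 0.00435 in silenced stems and 1.48% ± 0.00374 in wild type stems. These shares were fixed in direction by the choice of the genes and describe only how much RNA was involved.

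Coding length set apart short genes of middling abundance, which were called higher more often than lower. The tested genes were split by coding length into 5 classes of equal number. The 5623 genes of the shortest class, from 150 to 609 bases, had a median log2 fold change of 0.11, against 0.05 over all genes tested. In that class 19.5% were called at least 2-fold higher and 16.6% lower. In the middle class, from 936 to 1284 bases, 12.3% were called at least 2-fold higher and 14.4% lower, and in the longest class, from 1794 bases on, 11.9% were higher and 10.4% lower. From the shortest class to the longest, 36.2%, 30.6%, 26.7%, 28% and 22.3% of the genes changed at least 2-fold in either direction. The share higher minus the share lower was 2.93 percentage points in the shortest class and 1.51 in the longest. With the scaling alone changed it was 1.16 to 2.54 in the shortest class, and in the longest it turned to -0.21 with upper-quartile scaling. With the stem libraries fitted by themselves, which changes the genes tested and the spread estimate too, it was 0.12 in the shortest class and -1.86 in the longest.

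The excess of higher genes among short ones was largest within a band of similar read depth, 20 to 100 CPM, and there it kept its direction in every alternative run, at 6.57 to 10.24 percentage points. This band was singled out after the values of 6 level classes by 5 length classes had been seen. Among genes at 20 to 100 CPM, the shortest class held 1309 genes, of which 20.3% were called higher and 10.5% lower by at least 2-fold in silenced stems, with a median log2 fold change of 0.28. The middle class at the same level held 1598 genes, with 7.63% higher and 10.8% lower and a median of 0.03, and the longest class 2047 genes, with 8.5% higher and 5.86% lower and a median of 0.07. At 100 to 500 CPM 17.9% of the shortest class were higher and 11.2% lower. Under 1 CPM the order was the opposite, with 17.2% of the shortest class at least 2-fold higher and 22.2% lower.

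In reads, both shorter classes and the longest one held more in silenced stems, and the other two held less. The shortest class held 18.9%, 19.1% and 19.1% of the reads in the silenced stem libraries, against 17.9%, 18.1% and 17.9% in the wild type stem libraries. The longest class held 21.2% ± 0.0838 in silenced stems and 20.2% ± 0.0786 in wild type stems (SD, n = 3 each). The class between the shortest and the middle held 19.7% ± 0.00711 in silenced stems and 19.3% ± 0.0292 in wild type stems. The middle class held 19.4% ± 0.00811 in silenced stems and 20.5% ± 0.0197 in wild type stems. The class between the middle and the longest held 20.6% ± 0.0388 in silenced stems and 22% ± 0.0491 in wild type stems. In no class did the stem groups overlap. The mean coding length weighted by reads accordingly differed little, 1350.4 ± 2.84 bases in silenced stems and 1340.6 ± 2.97 bases in wild type stems (two-sided exact permutation test, p = 0.1, the smallest possible).

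In bud short genes were called lower more often than higher, within this band and beyond it. Of the whole shortest class 13.2% were at least 2-fold higher and 30.5% lower in silenced buds. For the shortest class at 100 to 500 CPM these shares were 6.92% and 31.7%. Among genes at 20 to 100 CPM in stem, the shortest class had a median log2 fold change of -0.42 in bud, and changes of at least 2-fold were upward for 8.1% and downward for 30.9% in silenced buds, against 13.4% and 23.8% of all genes tested. The difference between the effects, tested gene by gene in the same edgeR fit, was called with the more positive effect in stem for 58.7% of these genes and with the more negative one for 29.3%. Over all genes tested these shares were 38.8% and 35.5%. In the longest class at the same level 31% had the more positive effect in stem and 54.8% the more negative one. Whole bud libraries differed in length as well, with a read-weighted mean coding length of 1514.8 ± 4.38 bases in silenced buds and 1357.2 ± 3.9 bases in wild type buds (SD, n = 3 each), a far wider gap than in stem. The part of this bud difference in the contrast between the tissues was not tested.

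**Figure D4:**
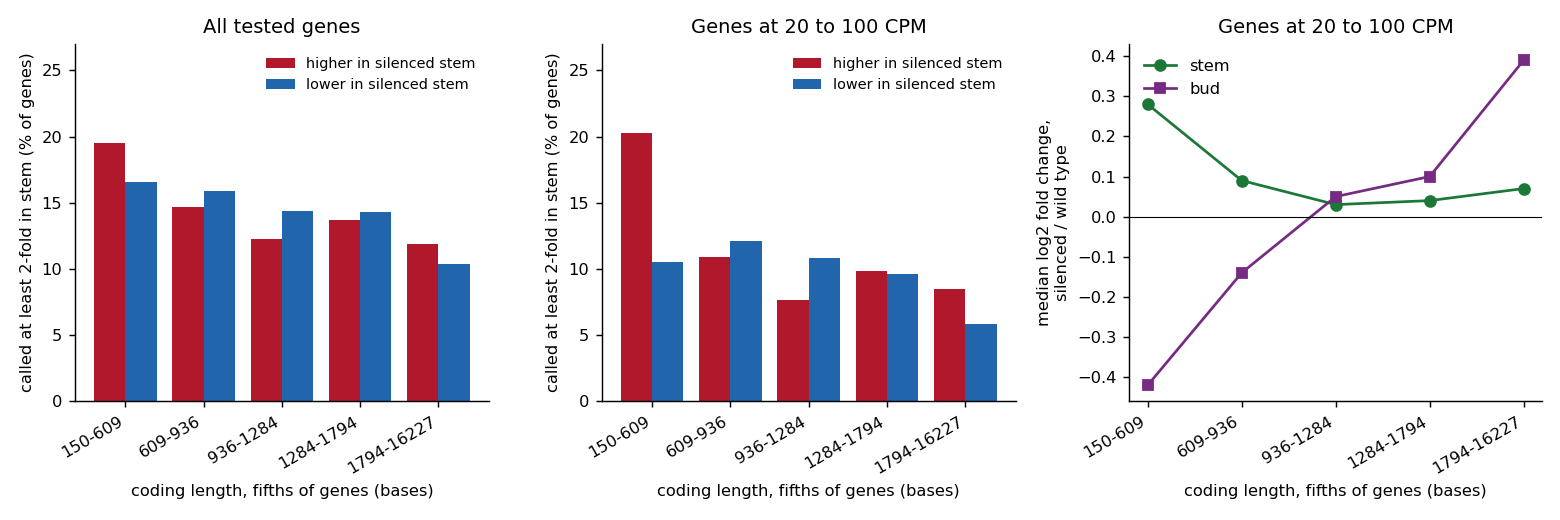
Percent of genes called at least 2-fold higher (red) or lower (blue) in silenced stems (y axis) by 5 classes of coding length (x axis, bases), for all tested genes (left) and for genes at 20 to 100 CPM (middle), and the median log2 fold change of the latter genes in stem and in bud (right). The shortest genes stand out in stem with 20.3% higher and 10.5% lower at 20 to 100 CPM, and their medians are 0.28 in stem and -0.42 in bud.

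Most genes with large changes in stem had another effect in bud, whose libraries are not those of the stems. Of the 8086 genes changed at least 2-fold in stem 6734, or 83.3%, differed in their effect between stem and bud by the interaction test (edgeR, adjusted p under 0.05), against 74.4% of all genes tested. Of these, 3765 had the more positive effect in stem and 2969 the more negative one. The interaction is the stem effect minus the bud effect, so choosing genes by a large stem effect raises that share and sets part of the split, and both are given as a description. Among the 2725 genes higher in silenced stems by 2-fold to 4-fold, 529 were called higher and 1730 lower in silenced buds at any size, against 38.5% higher and 41.3% lower among all genes tested. Among the 2162 genes lower in silenced stems by 2-fold to 4-fold, 1089 were called higher and 624 lower in silenced buds.

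Among the strongest losses in stem, bud values more often had the same sign, but the strongest gains were also more often lower in bud. The 496 genes that were at least 32-fold lower in silenced stems had a median log2 fold change of -1.48 in bud, and 259 of them, 52.2%, were called lower in silenced buds while 114, 23%, were called higher. Over all genes tested 41.3% were called lower and 38.5% higher in silenced buds. The 2005 genes lower by 1.5-fold to 2-fold had a median of 0.44 in bud, with 22.8% called lower and 59.9% called higher. The interaction was called for 60.7% of the strongest losses and for 86.6% of the weaker ones, whose median stem levels were 1.61 CPM and 15 CPM. The part of read depth in this contrast was not tested. Among the genes higher in silenced stems the median in bud stayed negative from 1.2-fold on, at -0.12 for 1.2-fold to 1.5-fold, -1.19 for 4-fold to 8-fold and -0.78 for 32-fold and over. Of the genes higher by 32-fold and over, 47% were called lower and 28.6% higher in silenced buds. Over all tested genes under 1 CPM in stem the median in bud was -0.71, and at 1 to 5 CPM it was -0.1. Under 1 CPM in stem 44.3% were called at least 2-fold lower and 19.1% higher in silenced buds. Genes so weak in stem could pass the read filter through their bud reads, so the filter sets part of these bud values.

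The read shares of the 2-fold classes showed the same on the scale of whole libraries. The 4061 genes higher in silenced stems held 18.1% ± 0.00325 of the reads in silenced stems and 5.97% ± 0.0144 in wild type stems, as their choice requires. The bud libraries entered the choice only through the read filter, the scaling and the shared estimate of the spread. In bud these genes held 10.9% ± 0.036 in silenced plants and 19.8% ± 0.0267 in wild type plants (SD, n = 3 each). The 4025 genes lower in silenced stems held 5.82% ± 0.0067 of the reads in silenced stems and 20.1% ± 0.0361 in wild type stems. In bud they held 9.55% ± 0.00343 in silenced plants and 6.98% ± 0.0234 in wild type plants. The bud groups did not overlap in either class. In both classes silenced stems and wild type buds thus stood on the same side, and wild type stems and silenced buds on the other. An exchange of the genotype labels in 1 tissue would give such a pattern and would turn every direction in that tissue. Such an exchange was not tested against opposite responses of stem and bud, since BrCHR39 was not analysed. Not every class showed this pattern. Of the genes at least 32-fold lower in silenced stems 52.2% were called lower and 23% higher in silenced buds. For those at least 32-fold higher these shares were 47% and 28.6%. Of the 267 genes without reads in silenced stems 116 had none in silenced buds and 29 none in wild type buds. For the 53 genes without reads in wild type stems these counts were 10 and 8. In bulk RNA, fewer cells of a type and less RNA per cell cannot be told apart, which applies to each of the read shares.

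**Figure D5:**
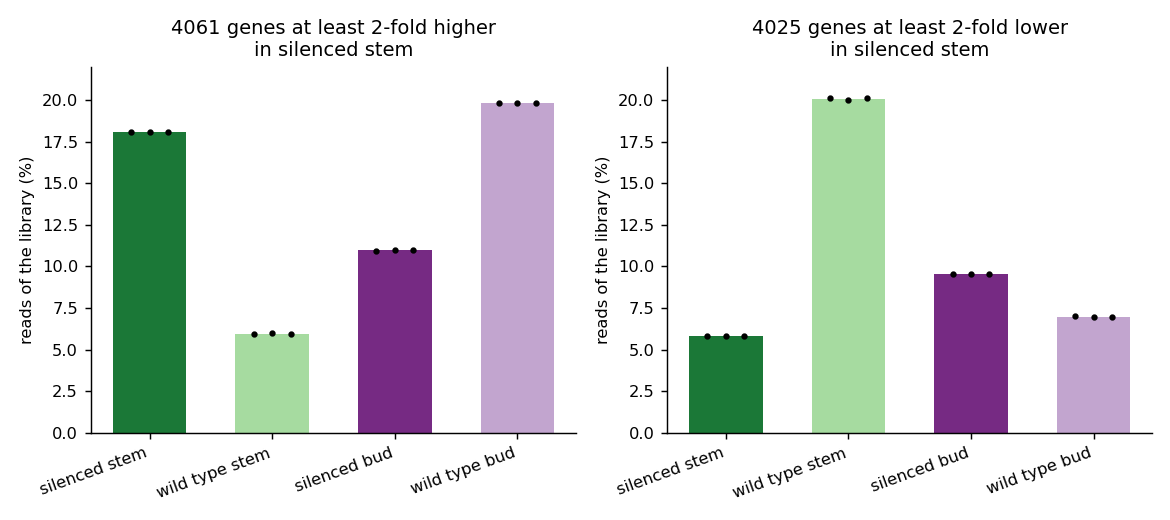
Percent of a library's reads (y axis) held by the genes at least 2-fold higher (left) and at least 2-fold lower (right) in silenced stems, by group (x axis), with bars at the mean and 1 point per library. The class higher in silenced stems holds 10.9% in silenced buds and 19.8% in wild type buds, and the class lower in silenced stems 9.55% in silenced buds and 6.98% in wild type buds.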

How the data were processed

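The authors deposited raw read counts per gene and FPKM values derived from them. Dividing each count by its library total and its FPKM gave a whole gene length (relative tolerance 1e-06) for all 35651 genes with reads, and every length was a multiple of 3, so these are coding lengths. The submitters' processing notes list featureCounts 2.0.1, TopHat2, Bowtie 1.0.1 and HISAT2 2.1.0 with no roles; build, annotation and strand: not given in the sources used here. Reads shared by near-identical gene copies, common in this genome, could be split or lost in that counting.

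Genes were kept by filterByExpr (minimum count 10), scaled by TMM with library sizes summed over the kept genes, and tested with edgeR 4.0.16 (R 4.3.3), 1 term per group over all 12 libraries. The common biological coefficient of variation was 2.89%. Classes of length and of level were described without a test. Members, lists and classes were chosen with earlier results of these data known. The rule for named genes allowed 2 identifiers per direction, those with the largest CPM difference among non-overlapping genes at least 2-fold changed. The gene table provided (CAAS_Brap_v3.01) named 1 of 41020 identifiers, so the planned lists of gene symbols were not tested.

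On simulated stem counts (28058 genes) the test recovered 21, 40, 50 and 50 of 50 genes changed 1.2-fold, 1.5-fold, 2-fold and 4-fold, with 10 false calls. The changed genes were drawn from those of at least 1 CPM in stem, and all genes were given the same spread. Recovery of weaker genes was not tested. Alternatives were other scalings, no filter, DESeq2 1.42.0, limma 3.58.1 on log2(FPKM + 1) and log2(FPKM + 0.1), the stem libraries alone, a replicate block, a test against 2-fold, FPKM as level, and leaving out each stem library.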

Additional observations from a re-analysis of the deposited data

Results flagged for a closer look

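The silencing effects of the 4 named genes, which had been chosen by their CPM difference in stem, differed between stem and bud by edgeR's interaction test, as did those of 74.4% of all genes tested. The effect in stem minus that in bud, on the log2 scale, was -2.19 for Bra013863 (adjusted p = 1e-121) and -3.71 for Bra012238 (adjusted p = 5.88e-159). It was 8.47 for Bra013164 (adjusted p = 2.05e-177) and 5.96 for Bra039648 (adjusted p = 9.16e-174). The same test was passed by 6734 of the genes changed at least 2-fold in stem, a share that their choice by the stem effect raises in part. In each gene the 3 libraries of a group showed the direction of their group mean without overlap in stem, as the choice of these genes required. Groups of 3 libraries were not screened for single outlying samples.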

How the results depend on the processing

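The 4 named genes kept direction and call in each of 17 alternatives. Counts at a fixed fold moved most with limma on log2(FPKM + 1), which shrinks folds of weak genes by construction: there 2615 genes were higher by 2-fold or more, 153 higher by 8-fold or more and 321 lower by 8-fold or more (2630, 153 and 321 without a filter). A test against 2-fold called 2666 genes higher. The other counts stayed within 1.5 times the reported ones in each alternative run. Replicate numbers did not pair the stem libraries (correlations of deviations between -0.0071 and 0.00463), and with the number as a block 10500 genes were higher and 8958 lower. By coding length, the percentage of the shortest class called at least 2-fold higher minus that called lower was 2.93 in the fit reported, 0.12 with the stem libraries alone, 1.89 with DESeq2's size factors, 1.16 with upper-quartile scaling, 6.53 among genes of at least 5 CPM, and 2.35 to 3.36 with 1 stem library left out. At 20 to 100 CPM it was 9.85, with the stem libraries alone 6.57, library totals 9.32, size factors 8.48, upper quartile 7.94, and 9.24 to 10.24 with 1 library left out. In the longest class it was 1.51, and -1.86 with the stem libraries alone, 1.1 with library totals, 0.3 with size factors and -0.21 with upper quartile. The median log2 fold change of the shortest minus the middle class was 0.11, in the same order 0.14, 0.1, 0.08 and 0.06, with 0.18 at 5 CPM and over and 0.1 to 0.13 with 1 library left out. The share called at least 2-fold under 5 CPM minus that at 20 CPM and over was 16.61 percentage points, 22.63 with the stem libraries alone, 10.74 with FPKM as level and 14.98 to 15.51 with 1 library left out. Under 5 CPM the share at least 8-fold lower minus that higher was 3.21, with these settings 4.87, 2.85 and 2.81 to 3.59, and 3.33 with library totals. DESeq2's size factors and the upper quartile were added for the length classes after the data were seen; the cause of these shifts was not tested. Weak genes limit the counts, as few reads give a large SE.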
